A study of Mus musculus with 6 samples.

Results

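Islands of H3K9me3 were examined in 3 arrays of odorant receptor genes on mouse chromosome 7. An island here is a stretch in which reads from the precipitate were denser than the average of its library. The class I array was taken from 109.5 to 112.6 Mb of the mm9 genome, around the beta-globin genes. Class II receptors of the same chromosome were taken in 2 places, a near array, from 113.6 to 116.1 Mb, and a far array, from 146.8 to 147.9 Mb. An island belonged to an array if its midpoint lay inside these limits. By this rule 34 islands of 4 libraries fell in the class I array and 278 in the class II arrays, of 12565 islands in the whole series. Joining the islands of the 4 libraries that overlapped gave 19 class I regions and 81 class II regions, of 5845 regions in all.

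Odorant receptors are the receptors for volatile chemicals on olfactory sensory neurons, and their choice is singular, so that all but a single receptor gene are kept silent in a mature neuron. Class I receptors resemble those of fish and sit in 1 array in the mouse, whereas class II receptors are the larger, tetrapod group and are spread over many arrays. Trimethylation of histone H3 at lysine 9 (H3K9me3) marks constitutive heterochromatin and is laid down over receptor arrays as neurons differentiate. Trimethylation at lysine 4 (H3K4me3) marks active promoters. Lamin B1, the product of Lmnb1, is a filament protein of the nuclear lamina, the layer beneath the nuclear envelope to which much heterochromatin is attached in most cells. In mature olfactory sensory neurons, per the study, most heterochromatin instead lies in the interior of the nucleus.

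For H3K9me3, cells of 2 control and 2 mutant mice were used, all of a mixed background. Per the methods of the study the controls were K5Cre;Lmnb1 fl/+ and the mutants K5Cre;Lmnb1 fl/fl mice, so that recombined cells were Lmnb1+/- and Lmnb1-/-, respectively, and the rest of each animal kept its floxed alleles. In K5Cre a cytokeratin 5 promoter drives Cre in horizontal basal cells, the reserve stem cells of the olfactory epithelium. All mice also carried the R26 Ai9 reporter, which makes recombined cells and their progeny fluoresce with tdTomato. The mice were 2 to 3 months old when damage was induced with 2 injections of methimazole at 50 mg/kg each. The epithelium had regenerated for 4 weeks when Tomato-positive cells, about 500000 per mouse, were isolated by sorting. Each mouse gave 1 sample, which was split between the antibody to H3K9me3 and the antibody to H3K4me3. H3K4me3 was analysed in 1 control and 1 mutant, those of replicate 1. A replicate is a pair of littermates, 1 of each genotype, from the same methimazole group (3 or 4). The sorted cells were a mixture of stem cells, progenitors, neurons and supporting cells, and a small minority in the mutants kept lamin B1, so an island in these data is an average over cell types. The makeup of the sorted cells was not checked against marker genes, since no mm9 annotation was used.

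The libraries differed in depth and in number of islands. Values of 4 libraries follow the order control 1, control 2, mutant 1, mutant 2 throughout. Read density per 200 bp window, solved from the scores of the shortest islands, averaged 1.41 and 2.54 in the controls and 1.43 and 2.18 in the mutants. The libraries held 2038, 5658, 2905 and 1964 islands, respectively. Mutant 2 thus had the fewest islands, although its read density was the second highest. Control 2 and mutant 2 stand at the 2 ends in most values below, so values without each of them are given where they change a direction.

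Coverage, the percent of base pairs of an array that lay in islands, separated the classes in every library. Class I was covered to 1.72% and 4.23% in the controls and 3.03% and 0.819% in the mutants. For class II, both arrays together, coverage was 19.3%, 25.3%, 24.3% and 13.1%, respectively. The highest class I value was below the lowest class II value. Class II exceeded class I by 18.1 percentage points on average (SD 4.19, n = 4 libraries), and the difference had the same sign in 4 of 4 libraries (exact sign-flip permutation test, two-sided, p = 0.125). With 4 libraries 0.125 is the smallest p this test can give, so the difference could not pass 0.05. As a ratio, coverage of class II was 11.3 and 5.98 times that of class I in the controls and 8.02 and 16.0 times in the mutants.

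In coverage, the class I array lay closer to the rest of chromosome 7 than to the other receptor arrays examined. Outside the 3 arrays islands covered chromosome 7 to 1.01% and 1.75% in the controls and 1.39% and 0.706% in the mutants. Class I was above this level in each library, but in mutant 2 only by 0.819% against 0.706%. Directly beside the class I array coverage was lower still. The 1 Mb ahead of it held 0 islands in each library. The gap between it and the near class II array was covered to 0%, 0%, 0% and 0.58%. Class I coverage was also set against an array of class II genes on chromosome 2 (86 to 90 Mb) and another on chromosome 9 (38 to 40 Mb). The first was covered to 42.4%, 51.6%, 47.9% and 34.0%, and the second to 62.2%, 67.0%, 68.7% and 41.0%. Class I minus the chromosome 2 array was -41.5 points (SD 6.20, n = 4) and class I minus the chromosome 9 array was -57.3 points (SD 11.6, n = 4), with the same sign in all 4 libraries for both (exact sign-flip permutation test, two-sided, p = 0.125 for each, the smallest possible). The class II arrays of chromosome 7 were themselves below these other arrays in each library, as the plot of coverage by array shows.

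**Figure D1:**
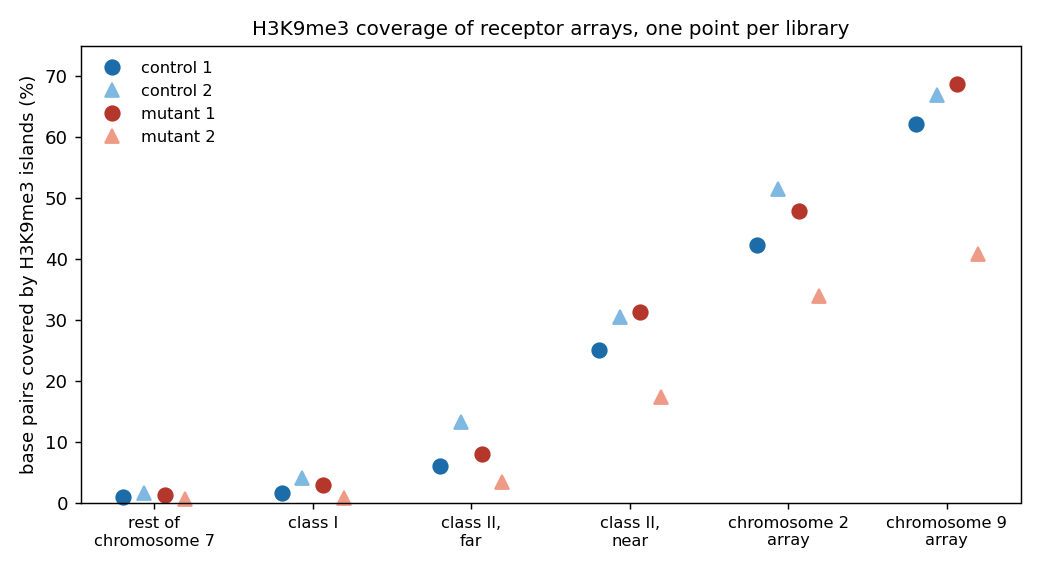
Percent of base pairs covered by H3K9me3 islands (vertical axis) for chromosome 7 outside the arrays, the class I array, the far and near class II arrays of chromosome 7 and the arrays of chromosomes 2 and 9 (horizontal axis), with 1 point per library. Class I lies between 0.819% and 4.23%, next to the rest of chromosome 7, and the near class II array between 17.4% and 31.4%, while in every array mutant 2 (light red triangles) is the lowest point.

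Of the class II arrays, the near one was the more densely covered. Its coverage was 25.2% and 30.6% in the controls and 31.4% and 17.4% in the mutants, from 57, 88, 65 and 37 islands. The far array was covered to 6.07%, 13.3%, 8.18% and 3.44%, from 6, 15, 6 and 4 islands. The near array exceeded the far array by 18.4 points (SD 3.87, n = 4), again in all 4 libraries (exact sign-flip permutation test, two-sided, p = 0.125, the smallest possible). Even the far array stood above class I in each library. In the far array, however, no library had an island in the first 537.2 kb, from 146800001 to 147337200. Whether receptor genes lie in that stretch was not checked in mm9. Between the first and the last island of any library (549 kb) coverage of the far array was 12.2%, 26.7%, 16.4% and 6.89%, still below the near array, which taken in the same way was covered to 26.0%, 31.6%, 32.5% and 18.0%.

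The islands were laid out unevenly within each array. In class I, 17 of the 19 regions lay in the first 1726.8 kb, and then came the longest stretch with no island in any library, from 111226801 to 112100600 (873.8 kb). Coverage before this stretch was 3.08% and 7.01% in the controls and 4.07% and 1.47% in the mutants. Behind it lay 2 regions, which held islands only in control 2 and mutant 1 and covered 0% and 2.04% of the last 499.4 kb in the controls and 4.77% and 0% in the mutants. In mutant 1, unlike the other libraries, coverage was thus higher behind the stretch than before it. The near class II array was divided as well, by a stretch without islands from 114353201 to 114937000 (583.8 kb). Before that stretch 23 regions covered 16.6%, 27.4%, 26.7% and 11.5% in the same order of libraries. After it 45 regions covered 43.4%, 47.9%, 50.2% and 29.9% of the last 1163 kb. This part was above the chromosome 2 array in control 1 and mutant 1 and below it in control 2 and mutant 2. It was cut at a stretch found in these data, while the chromosome 2 array was taken whole. Uncut, the near array was below the chromosome 2 array in each library. Whether receptor genes lie in the long stretches without islands was not checked in mm9.

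In bins of 50 kb, the class I array had an island in 5, 15, 12 and 2 of its 62 bins. The near class II array had one in 32, 34, 32 and 23 of 50 bins, and the far array in 6, 8, 6 and 4 of 22. The fullest bin of the near array was the same in all 4 libraries, 1850 to 1900 kb from its start, and was covered to 97.6%, 97.6%, 99.2% and 76.8%. The fullest class I bin, 300 to 350 kb from the start, was the same in control 1, control 2 and mutant 1, at 39.2%, 52.0% and 46.0%. In mutant 2 it was another bin, 800 to 850 kb from the start, at 35.2%.

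**Figure D2:**
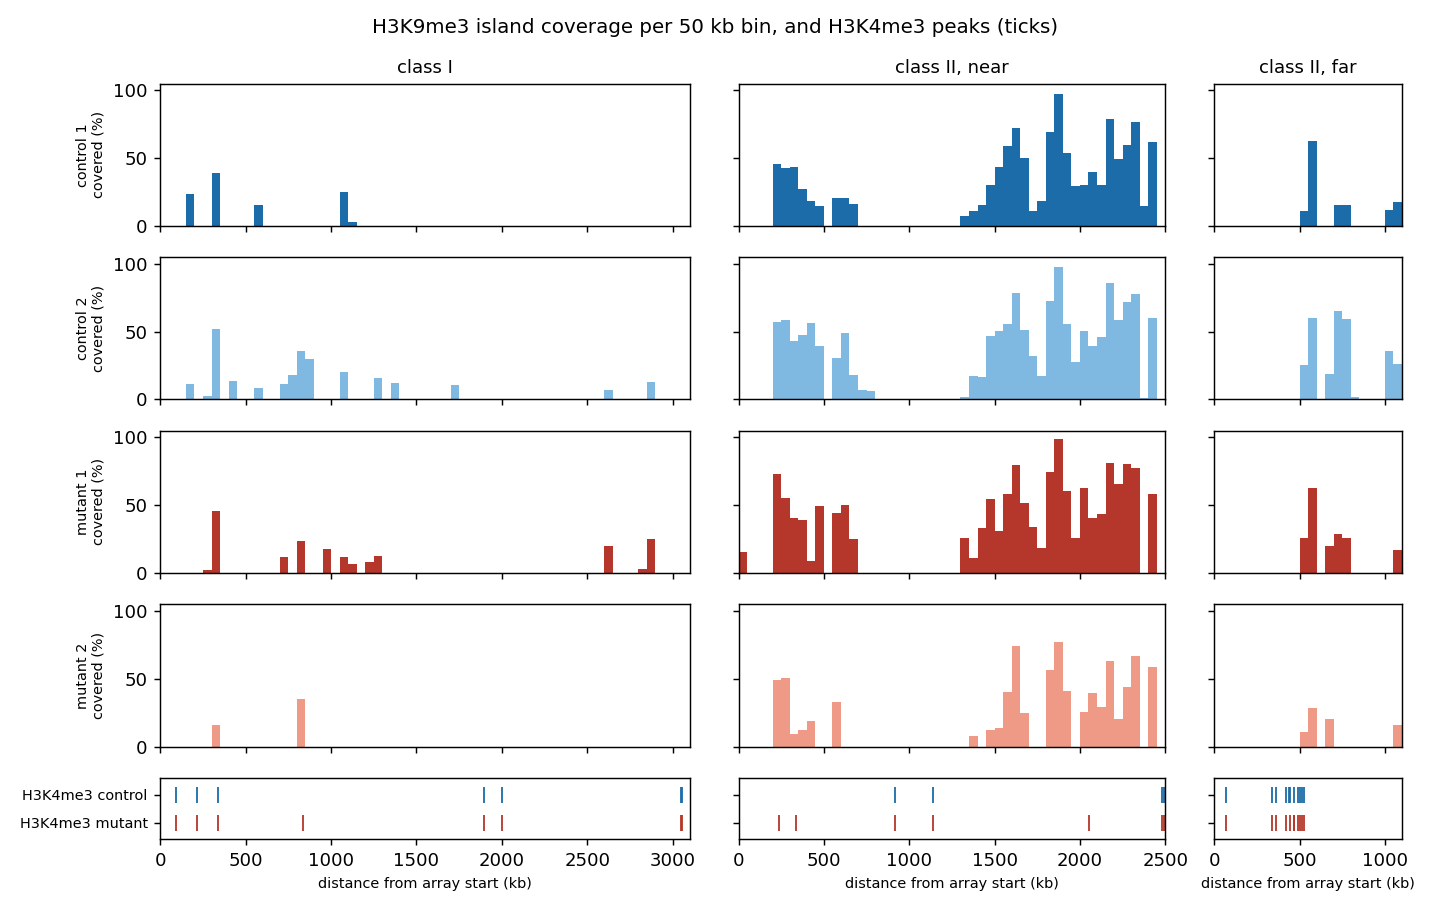
Percent of each 50 kb bin covered by H3K9me3 islands (vertical axes) against the distance from the start of the array in kb (horizontal axes), with 1 row per library and 1 column per array; ticks in the lowest row are H3K4me3 peaks of control 1 and mutant 1. The near class II array holds blocks of covered bins on both sides of an empty stretch of 583.8 kb, whereas class I holds scattered bins, none above 52.0%.

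In the RefSeq gene order the receptor genes of chromosome 7 fall into 7 runs, of which 3 match the arrays by name and class. Genes were not placed on the islands, because the annotation at hand is of GRCm38 and the islands are in mm9, so only names and neighbours were used. The run that holds the beta-globin genes goes from Olfr543 to Olfr692 and has 158 receptor genes, of which 149 have a class I name (an MOR number under 100), 5 a class II name and 4 neither. Between Olfr67 and Olfr66 it is broken by 6 Hbb genes, from Hbb-bt to Hbb-y, which encode the beta chains of haemoglobin. The next run, from Olfr693 to Olfr519, has 80 receptor genes with 71 class II and 2 class I names. The last, from Olfr522 to Olfr542-ps1, has 25, with 21 class II names and no class I name. The other 4 runs of the chromosome, with 31 receptor genes (29 class II names and 0 class I names), were not among the arrays, so the rest of chromosome 7 is not free of receptor genes. Pseudogenes made up 32 of the 158 genes of the class I run, 12 of the 80 and 6 of the 25 genes of the class II runs. Other genes among the receptor genes numbered 59 in the class I run and 23 and 5 in the class II runs. Coverage of an array was not restricted to receptor genes. The authors kept reads with a single alignment only, so values over receptor genes with near-identical copies are uncertain in both classes.

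Median island length did not separate the classes. The median class I island was 12.9 and 6.1 kb long in the controls and 10 and 8.2 kb long in the mutants. The median class II island was 9.0 and 7.2 kb against 10 and 10 kb long. Class II was the longer in 2 of 4 libraries, the shorter in control 1 and equal in mutant 1. The mean log2 ratio of class II to class I was 0.0015 (SD 0.37, n = 4; exact sign-flip permutation test, two-sided, p = 1). The class I medians rest on few islands, 4, 18, 9 and 3, and the sign of the ratio turned without control 2 (log2 ratio of -0.078) or without mutant 2 (-0.093). Long islands were found in both classes. Islands longer than 15 kb numbered 1, 1, 1 and 0 of the class I islands, in that order. In class II they numbered 11, 12, 16 and 9, of 63, 103, 71 and 41 islands. The difference in coverage therefore came with a difference in the number of islands per Mb, which was 1.29, 5.81, 2.90 and 0.968 in class I against 17.5, 28.6, 19.7 and 11.4 in class II.

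The score of an island adds up, window by window, the improbability of the observed read number under the average of the library, so a score per covered kb rises with the density of reads in an island and with the depth of the library. Class I scored 12.3 and 14.9 per covered kb in the controls and 12.9 and 10.5 in the mutants. Class II scored 17.8, 23.3, 19.98 and 15.9. Class II was higher in 4 of 4 libraries, with a mean log2 ratio of 0.60 (SD 0.05, n = 4; exact sign-flip permutation test, two-sided, p = 0.125, the smallest possible), that is 1.52 times the class I value. The ratio varied little between libraries although their depth and their number of islands did. Among islands of 5 to 15 kb only, a choice made after seeing the data so that islands of like length are compared, class I scored 10.4, 13.7, 12.0 and 10.5 per kb, and class II 16.1, 21.3, 18.0 and 15.6. Class I islands were also the weaker ones when set against islands of chromosome 7 outside the arrays. The median score per kb over single islands was 12.2, 13.5, 10.8 and 10.5 in class I, 16.7, 22.2, 19.8 and 15.7 in class II, and 13.9, 18.5, 15.8 and 16.6 outside the arrays.

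**Figure D3:**
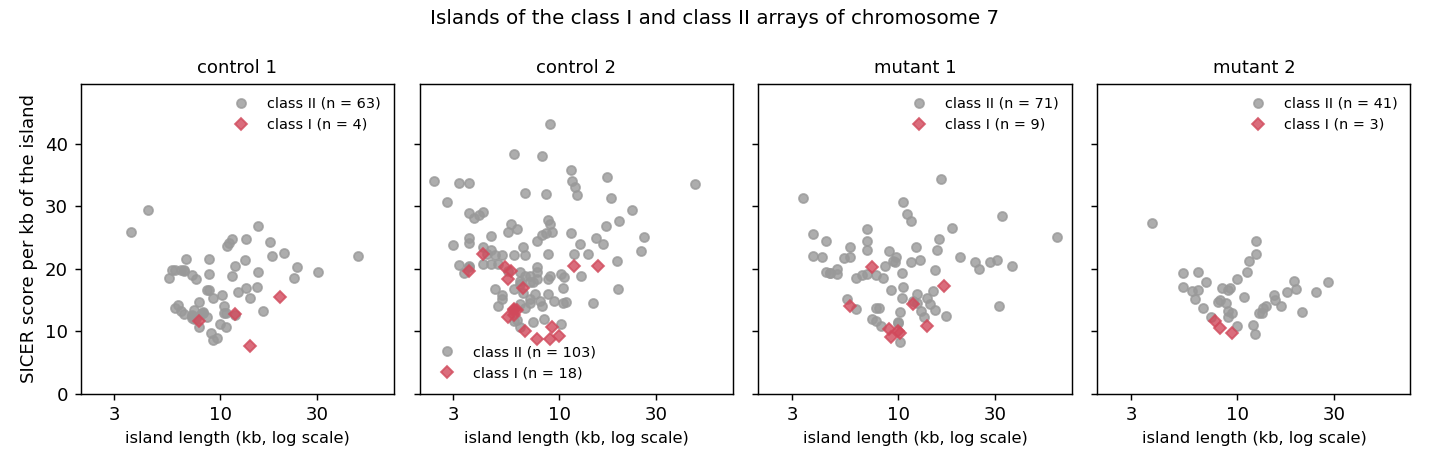
SICER score per kb of an island (vertical axes) against its length in kb on a log scale (horizontal axes) for the islands of the class I array (red diamonds) and of both class II arrays (grey circles), with 1 panel per library. Class I islands fall within the range of lengths of the class II islands, and 2 of the 34 exceed the class II median score per kb of their library, with class I medians of 12.2, 13.5, 10.8 and 10.5 against 16.7, 22.2, 19.8 and 15.7 in control 1, control 2, mutant 1 and mutant 2.

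Few class I islands stood well above the calling threshold. The median score over all islands of the 4 libraries was 108. At least this score was reached by 2 of 4 class I islands and 5 of 18 in the controls and 4 of 9 and 0 of 3 in the mutants. In class II it was reached by 68.3%, 68.0%, 76.1% and 78.0% of islands, against 57.4%, 39.8%, 58.9% and 58.5% of all islands of the same libraries. A score over 200 was held by 1, 2, 1 and 0 class I islands, which is 25%, 11.1%, 11.1% and 0% of them. In class II it was held by 20, 32, 30 and 13 islands, or 31.7%, 31.1%, 42.3% and 31.7%.

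Class I islands of different libraries coincided to a smaller extent than class II islands in each pair of libraries. Of the 19 class I regions, 1 had an island in all 4 libraries, and of the 81 class II regions, 31 had one. Over the whole series 17.2% of merged regions had an island in all 4 libraries. Regions with an island in 1 library only numbered 10 in class I, 8 of them from control 2, and 21 in class II, 15 of them from control 2. In base pairs, the part covered in both libraries, out of that covered in either, was 11% to 26.5% over the 6 pairs of libraries in class I and 44.9% to 70.1% in class II. All 4 libraries shared 3.26% of the covered bp of class I and 33.9% of that of class II. The lowest class II pair was above the highest class I pair, and the class I sets were also the smaller ones, whose part in this was not tested.

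The class I region found in all 4 libraries lay from 109798601 to 109826800 (28.2 kb), which is also the longest of that array. Its scores were 304 and 560 in the controls and 438 and 90.4 in the mutants. Mutant 2 was well below the other libraries, and the controls enclosed mutant 1. The scaled log2 fold change, mutant over control, was -0.59 (SE 0.52, adjusted p = 0.999, limma), and without mutant 2 it was 0.018. The other 18 class I regions reached at most 170 in any library.

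In the near class II array the longest region was from 115450201 to 115515000 (64.8 kb), with scores of 1264, 1807, 1527 and 885. It was followed in length by the region from 115390801 to 115441000 (50.2 kb), which scored 800, 1164, 984 and 410. Next came the region from 113811201 to 113848000 (36.8 kb), at 369, 779, 747 and 399. Mutant 2 was the lowest library in the first 2 of these, and control 1 in the last. The region with the highest lowest-of-4 score per kb was shorter, from 115220401 to 115232000 (11.6 kb), and scored 265, 409, 325 and 242. Its ratio of highest to lowest score was the smallest among these 4 regions, which the choice by the lowest score favours. Their scaled log2 fold changes, mutant over control, were -0.17 (SE 0.43), -0.36 (SE 0.45), 0.21 (SE 0.44) and -0.0051 (SE 0.43) in the order given, each with an adjusted p of 0.999 (limma).

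Both far class II regions found in all 4 libraries were lower in mutant 2 than in either control. The longer one, from 147337201 to 147382800 (45.6 kb), was the first behind the empty stretch and scored 762, 1050, 955 and 308. Its scaled log2 fold change was -0.45 (SE 0.49, adjusted p = 0.999, limma) and 0.038 without mutant 2. The shorter one, from 147843001 to 147859400 (16.4 kb), scored 250, 265, 176 and 117, so that both mutants were below both controls, and its scaled log2 fold change was -0.44 (SE 0.44, adjusted p = 0.999, limma).

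**Figure D4:**
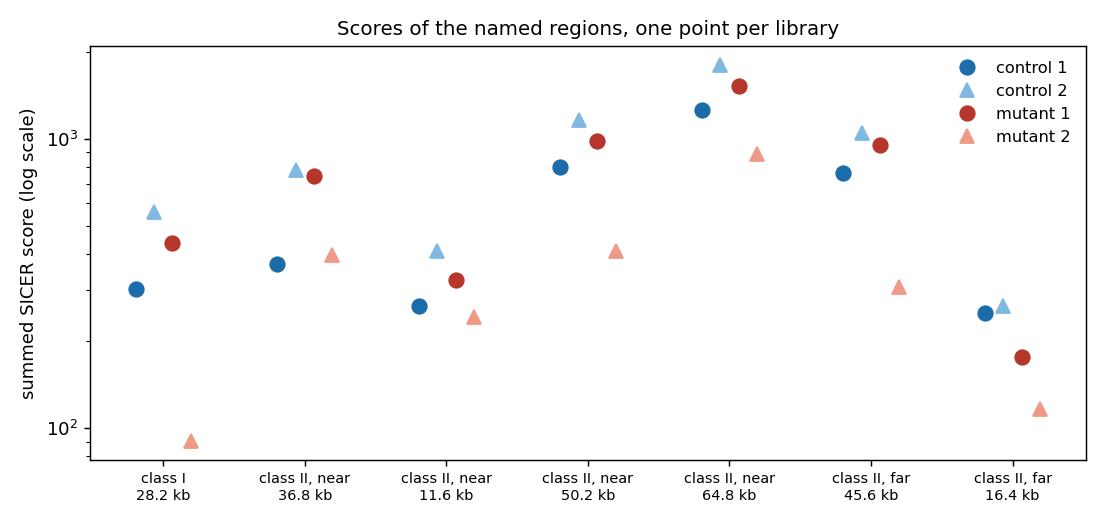
Summed SICER score on a log scale (vertical axis) of the 7 regions described above (horizontal axis, with array and length in kb), with 1 point per library. In 6 of the 7 regions mutant 2 (light red triangles) is the lowest, while mutant 1 lies between the controls in 6 of them and below both in the last.

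Genotypes were compared over the 2 control and 2 mutant libraries. For class I, coverage in controls was 2.97% ± 1.78 (SD, n = 2) and that in mutants 1.93% ± 1.56 (SD, n = 2), which differ by -1.05 points (mutant minus control; exact permutation test, two-sided, p = 0.667). Class II coverage in controls was 22.3% ± 4.2 (SD, n = 2) and that in mutants 18.7% ± 7.91 (SD, n = 2), so that mutant minus control was -3.61 points (exact permutation test, two-sided, p = 0.667). Both differences were smaller than the spread between the mutants, and with 2 libraries against 2 this test cannot give a p under 0.333. The littermate pairs went in opposite directions. Mutant 1 was above its littermate by 1.32 points in class I and 4.96 points in class II, whereas mutant 2 minus its own littermate was -3.41 and -12.2 points. Without mutant 2 the difference was 0.058 points in class I and 1.99 points in class II, and without control 2 it was 0.21 points in class I. Taken singly, the near class II array was covered to 27.9% ± 3.80 (SD, n = 2) among controls and 24.4% ± 9.92 (SD, n = 2) among mutants, and the far one to 9.69% ± 5.12 (SD, n = 2) and 5.81% ± 3.36 (SD, n = 2), with the pairs again in opposite directions in both.

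The contrast between the classes was also compared between genotypes, where the test can again give no p under 0.333. Class II exceeded class I in controls by 19.3 points ± 2.42 (SD, n = 2) and in mutants by 16.8 points ± 6.35 (SD, n = 2), and the genotypes differed by -2.56 points (exact permutation test, two-sided, p = 1), which was 1.93 points without mutant 2. Within the littermate pairs the difference was 3.64 and -8.76 points. For the score per covered kb the mean log2 ratio of class II to class I in controls was 0.59 ± 0.075 (SD, n = 2) and that in mutants 0.61 ± 0.027 (SD, n = 2), and the genotypes differed by 0.017 (exact permutation test, two-sided, p = 1). For island length the mean log2 ratio in controls was -0.14 ± 0.54 (SD, n = 2) and that in mutants 0.14 ± 0.20 (SD, n = 2), and the difference of 0.28 rests on few class I islands and was -0.096 without control 1 (exact permutation test with all 4 libraries, two-sided, p = 0.667). Within class I, the score per covered kb in controls was 13.6 ± 1.88 (SD, n = 2) and that in mutants 11.7 ± 1.70 (SD, n = 2), and within class II it was 20.6 ± 3.90 (SD, n = 2) and 17.9 ± 2.92 (SD, n = 2). These are scores as deposited, which rise with depth.

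The median class II island was longer in both mutants than in either control, a difference the test could not call. Its length was 9.0 and 7.2 kb in the controls and 10 kb in both mutants, so the groups did not overlap. The mean log2 ratio of mutant to control was 0.31 (two-sided p = 0.333 in the exact permutation test, which can give no smaller value), and it was above 0 in both littermate pairs, at 0.15 and 0.47. It ranged from 0.15 to 0.47 over 13 alternatives, which were added after seeing the data. The lowest value came without control 2, which has the shortest islands. Over all islands of a library the median length was 8.6 and 5.6 kb in the controls and 8.4 and 8.2 kb in the mutants, which did overlap. In class I the log2 ratio was 0.030 (exact permutation test, two-sided, p = 1), with the pairs at -0.37 and 0.43.

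Single regions were compared with limma over the 2803 merged regions with an island in at least 2 libraries, on log2(score + 64.7) after each library was shifted to a common median. Of these, 1 (0.0357%) had an adjusted p under 0.05, and it lay outside the arrays. Tested were 9 class I and 60 class II regions, and 0 of these 69 passed, the smallest adjusted p being 0.815. An unadjusted p under 0.05 was found for 4 of them, 1 in class I and 3 in class II, against 5.82% of all regions tested. The class I region is that from 109655001 to 109667000, with scores of 150 and 114 in the controls and no island in either mutant. Its log2 fold change of -1.41 (SE 0.50) depends on the constant added for the missing islands. With 1 in place of 64.7, 189 regions passed, 5 of them in the arrays (2 class I, 3 class II), each called in the 2 controls but not in the mutants.

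The median log2 fold change, mutant over control, was -0.18 over the 60 class II regions, of which 41 were below 0, and 0.20 over the 9 class I regions, of which 4 were below 0. Over all regions tested the median was 0.076, with 42.5% below 0. Without scaling the 3 medians were -0.36, 0.015 and -0.11, so that the shift common to all regions moved each of them. After scaling, a missing island stood at 6.21 in control 1, 5.84 in mutant 1 and 6.38 in mutant 2. Libraries without an island were therefore not equal, which enters these medians and all counts of scaled values. Of the class I regions only 1 had an island in all 4 libraries. The class II median was above 0 in 2 of 12 alternatives, at 0.035 with only islands that reach the pooled median score and at 0.065 without mutant 2. The class I median, which rests on few regions, was below 0 in 6 of 12, among them -0.51 without control 2 and -0.88 without mutant 1. The pairs differed here too. The median difference within class II was -0.018 between mutant 1 and control 1 and -0.50 between mutant 2 and control 2, and over all regions it was -0.032 and -0.27. Scaled values of both mutants were below those of both controls in 2 class I and 11 class II regions, against 17.2% of all regions tested. They were above both controls in 1 class I and 2 class II regions, against 11.5%. Counting islands instead of scores, 2 of all 19 class I and 3 of all 81 class II regions were called in the 2 controls but not in the mutants. In the 2 mutants but not in the controls 0 were called. Of all 5845 regions of the whole series, 187 and 33 were such regions, respectively.

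**Figure D5:**
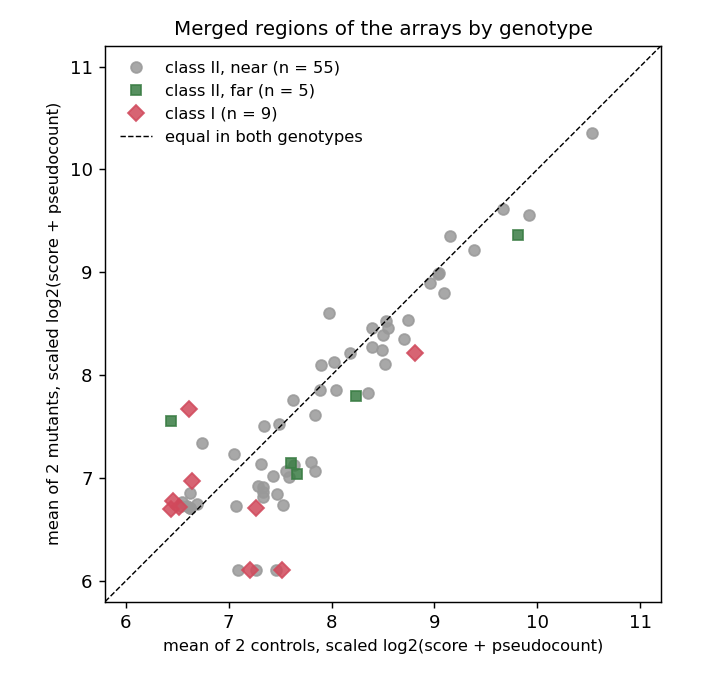
Mean of the 2 mutants (vertical axis) against the mean of the 2 controls (horizontal axis), both as scaled log2(score + pseudocount), for the 69 merged regions of the arrays with an island in at least 2 libraries; the dashed line marks equal values. The 9 class I regions (red diamonds) lie mostly at the low end, on both sides of the line, and 41 of the 60 class II regions (grey circles and green squares) lie below it.

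Peaks of H3K4me3 mostly lay away from the islands, as did most of the length of each array. Merged island regions filled 190.2 kb of the 3.1 Mb of class I. In the near class II array they filled 941.6 kb of 2.5 Mb, and in the far one 159.6 kb of 1.1 Mb. Whether fewer peaks lay over islands than these shares would give was not tested. The control library had 7 peaks in the class I array, 4 in the near class II array and 11 in the far one, of 15584 peaks in all. The mutant library had 8, 7 and 11, of 17897. Per Mb these are 2.26, 1.6 and 10 peaks in the control and 2.58, 2.80 and 10 in the mutant, so the far window was the densest in both. In control 1, 0 of these 22 peaks lay over an H3K9me3 island of any library. In the mutant, 1 peak in class I and 3 in the near class II array did, and those were the 4 peaks of the class I and near class II arrays that the control lacked, with low scores of 53.6 to 70.6 against a median of 594 over all peaks of that library. With 1 library per genotype this difference has no replicate check, and the mutant library had more peaks in all.

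Of the 22 control peaks 6 lay between islands and 16 outside the outermost islands of their array, and of the 26 mutant peaks 6 and 16. The longest stretch without islands held 2 peaks in each library in class I and likewise 2 in each in the near class II array. In the far array all 11 peaks of each library lay in the first 537.2 kb, ahead of the first island, so that the 2 marks divided this window. Of the peaks of the control, 7 of 7 in class I, 4 of 4 in the near and 10 of 11 in the far array overlapped a peak of the mutant. The highest score in class I was 1497 in the control and 1355 in the mutant, at a pair of overlapping peaks that lay 185 kb from the nearest island. The class I peak closest to an island, leaving out the mutant peak over one, was 8.18 kb away in the control and 8.11 kb away in the mutant, next to the region found in all 4 libraries. Whether these peaks belong to receptor genes or to other genes among them was not tested.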

How the data were processed

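Per the labels and the methods of the study, the authors split the chromatin of each sample between FARP-ChIP-seq for H3K9me3 and for H3K4me3, a precipitation method for low cell numbers, and mapped reads to mm9 with bowtie (single alignments, at most 2 mismatches). The authors deposited SICER island scores for H3K9me3 (windows of 200 bp, gaps of 600 bp, E-value 0.01), called in each library separately with no input library, and MACS peaks with a score for H3K4me3. A score is not a count and was not scaled between libraries. The authors' merged peaks and read counts in them were not used here.

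Islands were placed by their midpoint, and islands of the 4 libraries that overlapped were joined. Exact sign-flip tests ran over the 4 libraries, exact permutation tests over 2 against 2. Depth per window was solved from islands of 2 windows, of which 5 of 5, 10 of 10, 11 of 11 and 10 of 10 gave whole read numbers (tolerance 0.0001 of the score) in control 1, control 2, mutant 1 and mutant 2, against 2 for the next best average in each. Limma 3.58.1 in R 4.3.3 was fitted over all merged regions called in at least 2 libraries, on log2(score + 64.7), the smallest island score, which understates changes of weak islands; a region passed at a Benjamini-Hochberg adjusted p under 0.05. The fit and the interval measures were tested on simulated data. Other steps ran in Python 3.11.15 (scipy 1.17.1, matplotlib 3.10.9, pandas 2.3.3, numpy 2.4.6).

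The arrays, regions, lists and tests were chosen with earlier results of these data known. Regions described singly are, in each array, the 3 longest merged regions called in all 4 libraries (class I had 1 and the far array 2), the one with the highest lowest-of-4 score per kb, and any past the threshold; the region at 109655001, and the highest-scoring and nearest H3K4me3 peaks, were picked after their values were seen. Replicate numbers pair littermates of the same methimazole group, per the labels and the study. The deviations of the control and the mutant of a pair from their groups correlated at -0.016 across the 2803 regions. Across the 69 regions of the arrays the correlation was -0.17. Regions are not independent replicates. The p-values cover the spread between single libraries only, each from 1 mouse, so mouse, sorting, precipitation and depth cannot be told apart. Those of limma also draw on the spread of the other regions. Islands reach beyond the GRCm38 length of 8 of 21 chromosomes, so GRCm38 sequence and coordinates were not combined with the islands. MOR numbers came from the synonyms in the RefSeq table of GRCm38, and receptor genes were split into runs where at least 30 other genes lay between them.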

Additional observations from a re-analysis of the deposited data

How the results depend on the processing

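The class II over class I differences kept their sign under each alternative run, from 5.30 to 23.7 percentage points in coverage and from 0.43 to 0.65 (log2) in score per covered kb; class I minus the chromosome 2 array stayed between -44.3 and -38.4 points and class I minus the chromosome 9 array between -63.0 and -54.5. With islands of at least the pooled median score, mutant 2 has no class I island, so length and score ratios were not run. Other results turned sign, and the cause was not tested. The length ratio was -0.27 with equal numbers of islands, but 0.17 by the mean length and 0.28 with islands closer than 2 kb joined. On leaving out 1 library it ranged from -0.093 to 0.18. The genotype difference in the score ratio was -0.063 with islands of 5 to 15 kb, a choice made after seeing the data, and ranged from -0.036 to 0.071 on leaving out 1 library; that in the length ratio ranged from -0.096 to 0.66, that in class II minus class I coverage from -7.05 to 1.93, and mutant minus control coverage from -2.31 to 0.21 points in class I and from -9.20 to 1.99 in class II.

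With the littermate pair as replicate block the genotype differences were -1.05 points in class I, -3.61 in class II and -2.56 for their contrast, 0.28 in the length ratio and 0.02 in the score ratio, as without it, and the block changed no call (1 region in all, 0 in the arrays). The 1 region past the threshold became 0 with 10 times the pseudocount, without scaling, with stricter islands or with equal numbers of islands, and 0 to 1 on leaving out 1 library. With a pseudocount of 1 it became 189, of which 5 were in the arrays, all 5 called in the 2 controls but not in the mutants. On leaving out 1 library, the fold change ranged from -1.20 to 0.018 for the class I region from 109798601, from -0.94 to 0.038 for the far class II region from 147337201, from -0.057 to 0.39 for the near class II region from 113811201 and from -0.068 to 0.068 for that from 115220401, which had 0.012 with a pseudocount of 1, 0.078 with stricter islands and 0.022 with equal numbers. Mutant over control island length of class I was -0.38 with equal numbers of islands and -0.066 by the mean length, and ranged from -0.51 to 0.57 on leaving out 1 library; these alternatives were added after seeing the data. Few islands stand behind each value of class I (3 to 18) and of the far array (4 to 15), and no interval of counts can be given for scores.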
